A study of Mus musculus with 20 samples.

Results

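The late step in the life of a retina without rods was examined by setting retinas of 10-month-old mice against retinas of 4-month-old mice. The 2 ages were chosen by the age in the sample labels and hold 8 of the 20 arrays of the series, 4 per age. All mice in both groups were Nrl-/- on the C57Bl/6J strain, carried no other allele and received no treatment named in the labels, and each array measured both retinas of 1 mouse. The other 12 arrays, from mice of the same genotype aged 1, 2 and 6 months, entered the same model, which takes 1 spread between mice per gene for all ages. No wild-type retina was part of the comparison, so changes due to the loss of Nrl and changes of normal ageing cannot be told apart. The labels name neither the sex of the mice nor a batch, a scan date or the hour of dissection, so age and any difference in handling between the 2 groups cannot be told apart.

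Nrl is the transcription factor that photoreceptor precursors need to become rods. Mice that lack it make photoreceptors with the opsin, transducin and channel genes of cones in place of rods, so the retina gives an unusually large amount of cone RNA for study. Cones signal through a cascade that runs from opsin through transducin and a phosphodiesterase to a cyclic nucleotide-gated channel in the outer segment membrane. They are surrounded by Müller glia, which recycle retinoids and transmitters, by microglia, the resident immune cells, and by the pigment epithelium, which lies behind the retina and can stay attached to it at dissection.

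Levels are log2 values from RMA, the robust multi-array average, which corrects background, brings the arrays to a common scale and summarises the probes of a probe set. The exon array reads each gene with several probe sets, a median of 9 per gene here, and the probe sets of a gene were combined into 1 level per array. Of 15803 genes measured, 11852 were bright enough to be tested (mean log2 level above 5.61), 267 of them on 1 probe set. A change is the mean at 10 months minus the mean at 4 months on the log2 scale, n = 4 mice per age, so a change of 1 is a doubling. The standard error given with it uses the spread pooled over all 20 arrays. For a gene that varied more at 10 months, that spread can be smaller than the spread of the 10-month group. A gene was called, and is said to have risen or fallen, when its adjusted p from limma was under 0.05. Each value is RNA of the whole retina, in which fewer cells of a type and less RNA per cell cannot be told apart.

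The arrays at 10 months were less alike than those at 4 months in 2 respects. The mean level of 15 pigment epithelium genes was 7.93, 6.69, 7.51 and 7.80 in replicates 1 to 4 at 10 months, against 6.72 to 7.06 at 4 months. Replicates 1, 3 and 4 at 10 months thus lay above all 4-month arrays, and replicate 2 lay below them. Dct, a melanin synthesis enzyme, stood at 10.55, 6.44, 8.31 and 8.41 at 10 months and at 6.70 to 7.16 at 4 months. Rpe65, the retinoid isomerase that defines the pigment epithelium, stood at 7.63, 6.35, 7.25 and 8.61 at 10 months and at 6.41 to 7.02 at 4 months. Tyrp1 and Pmel, 2 other melanin genes, had the same high and low arrays as Dct. The differences of Dct (1.49 ± 0.60, adjusted p = 0.087), Tyrp1 (1.18 ± 0.44, adjusted p = 0.0625), Pmel (0.89 ± 0.33, adjusted p = 0.0601) and Rpe65 (0.84 ± 0.30, adjusted p = 0.0554) missed the limma threshold. Of 13 tested pigment epithelium genes, 1 was called, Rrh, an opsin-like protein of that layer (0.44 ± 0.09, adjusted p = 0.00204), and the median difference of the 13 was 0.55. At an unadjusted p under 0.05, 11 of the 13 passed, against 3967 of all 11852 tested genes. With either Y-linked alternative (the level of Y-linked genes as a covariate, or the 10-month arrays low in them left out) 10 of the 13 were called higher, and leaving out 1 array at a time gave 1 to 11 calls. The 10-month arrays low in Y-linked genes include replicate 2, the array low in pigment genes. Leaving it out raises the 10-month mean of these genes, so the higher count is not separate support for a rise.

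The Y-linked genes split the 10-month arrays another way. Their mean level was 7.40 and 7.72 in replicates 1 and 4 and 4.13 and 4.42 in replicates 2 and 3, against 7.33 to 7.63 at 4 months. Both Y-linked genes, Eif2s3y and Kdm5d, were called lower (adjusted p = 0.0483 and 0.0372 with limma), and without replicates 2 and 3 neither was. At 2 months all 4 arrays were low in Y-linked genes (4.00 to 4.28), and at 1 and 6 months none was (7.65 to 8.28). For the means at 2 months given below, age and this difference cannot be told apart. The opsin Opn1sw stayed between 13.49 and 13.70 in all 8 arrays. The level of Nrl, 6.09 to 6.53 at 4 months and 6.08 to 6.21 at 10 months, checks nothing here, because the place of its probe sets relative to the deleted part is not given in the sources used here. Of 10 tested lens genes 0 were called by limma, 0 at an unadjusted p under 0.05 and up to 1 in the alternatives, with a median difference of -0.0031, and of 2 red blood cell genes 0 were called, 1 at an unadjusted p under 0.05 and up to 1 in the alternatives. Among all 11852 tested genes 3967 passed that unadjusted threshold. Because of the split in the pigment genes, each gene named by rule that lost its call when the pigment genes were taken into account is listed in the last paragraph of the results. Pdia6, Xbp1, Calr, Dnajc3 and Syvn1 are mentioned below outside that rule, and the list does not cover them.

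**Figure D1:**
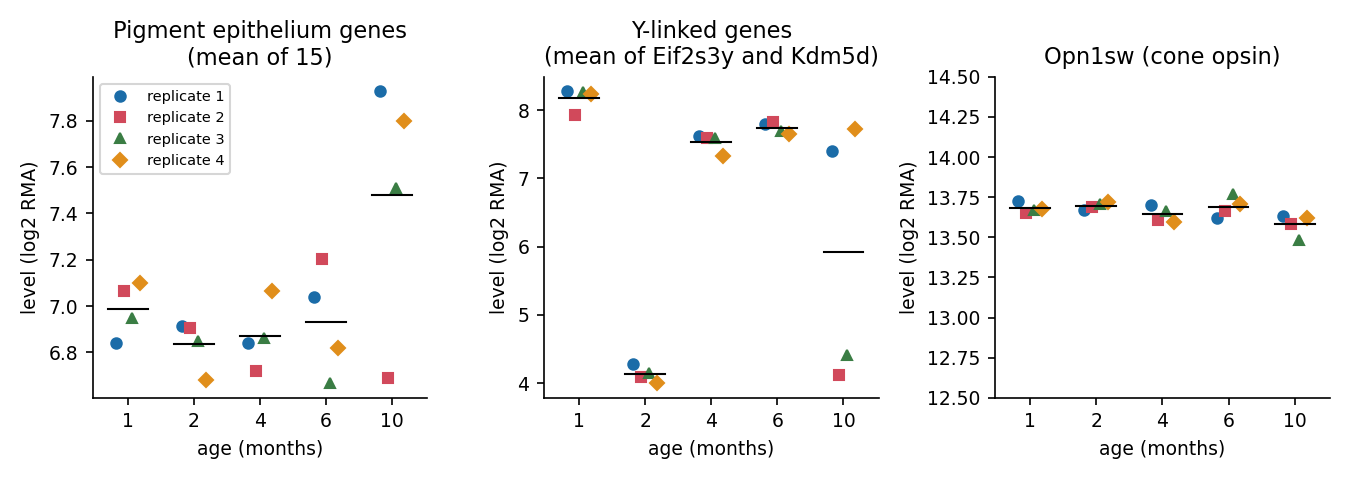
Mean log2 level of the pigment epithelium genes, of the Y-linked genes and of Opn1sw in each array (points, 1 symbol per replicate) by age in months, with the group mean as a line. At 10 months the pigment genes are high in replicates 1, 3 and 4 and low in replicate 2, and the Y-linked genes are high in replicates 1 and 4 and low in replicates 2 and 3.

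Between 4 and 10 months 2597 genes were called, 21.9% of those tested, 1216 higher (10.3%) and 1381 lower (11.7%) at 10 months. Most changes were small. The median of the called rises was 0.27 and that of the called falls -0.31, and 184 called genes changed by at least 1.5-fold, 75 up and 109 down. The 4 arrays of one age lay entirely above the 4 of the other for 2292 genes (19.3%), 1070 higher (9.03%) and 1222 lower (10.3%), of which 1902 were also called. Replicate 2 at 10 months, low in pigment genes, stood apart in many rises and few falls. Among the 75 rises of at least 1.5-fold, replicate 2 at 10 months lay nearer to the 4-month mean than to the other 10-month arrays for 35 genes, against 3, 9 and 5 genes for replicates 1, 3 and 4. Among the 109 falls it did so for 4 genes, against 7, 3 and 7. Both pigment alternatives below bear on this. With the pigment level of each array as a covariate 3.35% of the tested genes were called higher and 5.24% lower. With replicates 1, 3 and 4 at 10 months left out, a fit that takes replicate 2 alone to vary like the other groups, 1.43% were called higher and 3.14% lower. They are named below as the pigment covariate and replicate 2 alone, and counts of list members under them are to be read against these shares. Of the 11852 tested genes, 426 were called higher (3.59%) and 675 lower on the 8 arrays alone. With the Y-linked covariate 1106 were called higher and 1160 lower. Without the arrays low in Y-linked genes the counts were 1050 and 1127. Replicate 2 at 10 months was also low in Y-linked genes (4.13, against 7.33 to 7.63 at 4 months). In the fit on replicate 2 alone the median change of the Y-linked genes was -3.41. The pigment and Y-linked differences therefore cannot be told apart in that fit.

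Photoreceptor, endoplasmic reticulum and immune lists held large shares of falls, and immediate early, clock, glucocorticoid and metallothionein lists large shares of rises, as the plot of called shares shows. Several lists share members, so their counts are not separate pieces of evidence.

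**Figure D2:**
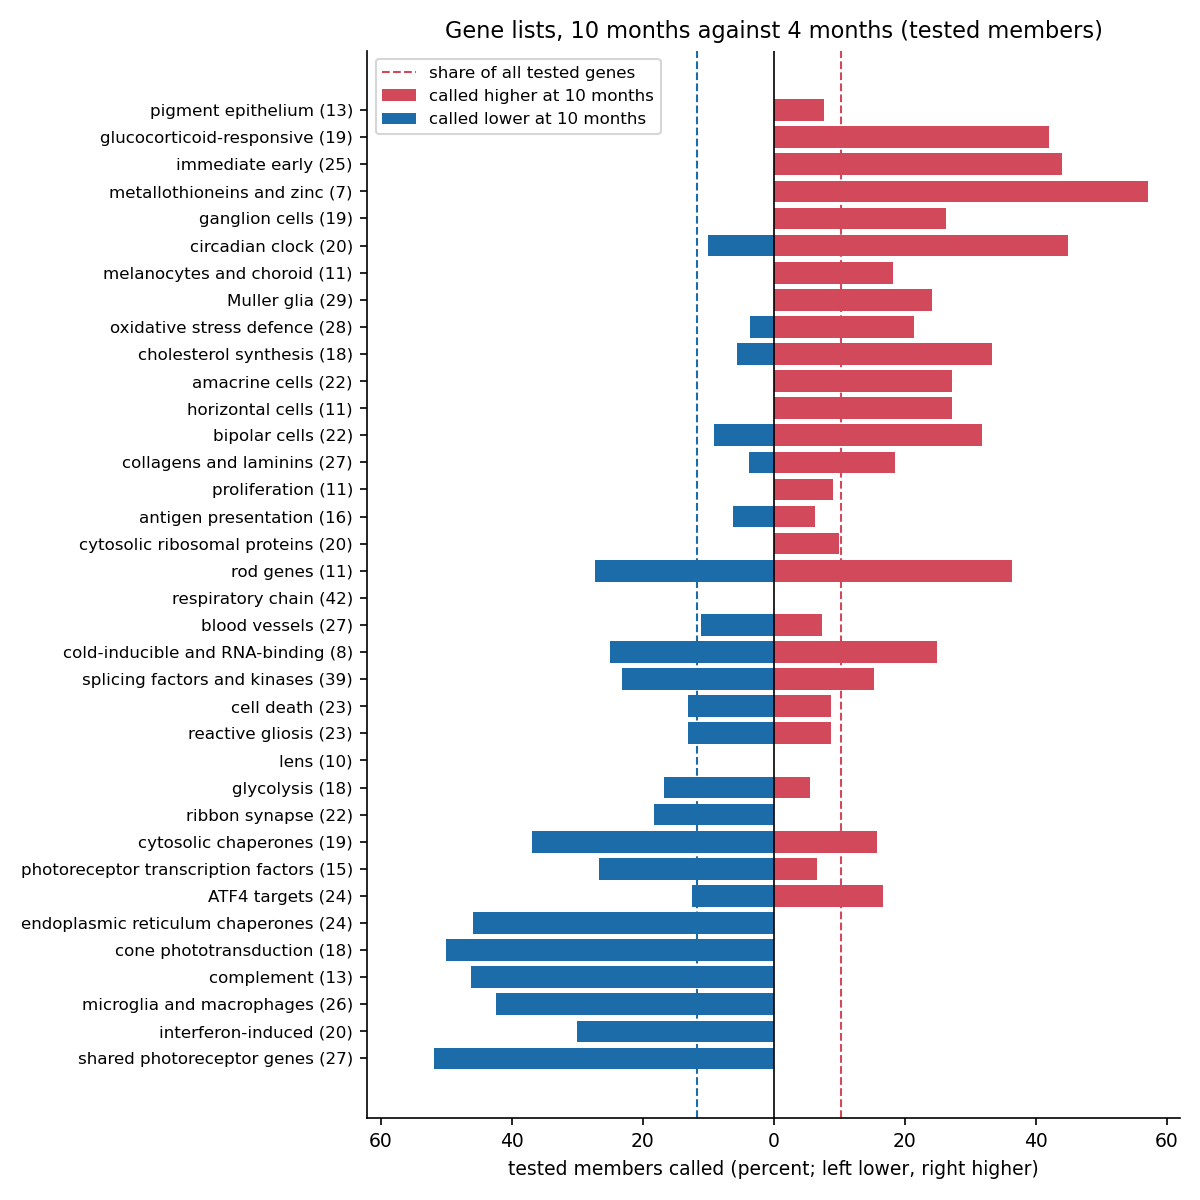
Share of the tested members of each gene list (number tested in brackets) called higher (right, red) or lower (left, blue) at 10 months, with lists ordered by their median change and dashed lines at the shares of all tested genes, 10.3% and 11.7%. Shared photoreceptor, cone, endoplasmic reticulum, complement and microglia lists extend to the left with no member called higher, and glucocorticoid, immediate early and metallothionein lists to the right with none called lower.

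Some cone genes fell and others were not called. Of 18 tested cone phototransduction genes 9 fell and 0 rose, with a median change of -0.19 against 0.02 for all genes tested. The largest fall was that of Cnga3, the alpha subunit of the cone cyclic nucleotide-gated channel, which stood at 9.49, 9.51, 9.48 and 9.60 at 4 months and at 8.74, 8.60, 8.51 and 8.59 at 10 months. No array of one age reached the range of the other, and the change was -0.91 ± 0.07 (adjusted p = 2.21e-07, limma), a 1.88-fold lower level. Kcnv2, a modulatory potassium channel subunit of photoreceptors, went from 11.21, 11.30, 11.27 and 11.24 to 10.24, 10.67, 10.47 and 10.29, again without overlap (-0.84 ± 0.08, adjusted p = 1.53e-06). Both genes had been level until then: the means at 1, 2, 4, 6 and 10 months were 9.54, 9.69, 9.52, 9.45 and 8.61 for Cnga3 and 11.36, 11.43, 11.25, 11.29 and 10.42 for Kcnv2.

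The other called cone genes moved less. Opn1mw, the medium-wavelength opsin, fell from 11.73 to 11.81 at 4 months to 11.26 to 11.53 at 10 months (-0.36 ± 0.06, adjusted p = 0.000312), and part of that difference was present at 6 months, where its mean was 11.61. Arr3, the cone arrestin that ends opsin signalling, fell by 0.30 on the log2 scale (± 0.07, adjusted p = 0.00435) and Gngt2, the gamma subunit of cone transducin, by 0.37 (± 0.08, adjusted p = 0.00275). Rxrg, a retinoid receptor of cones, fell by 0.38 (± 0.06, adjusted p = 9.90e-05). In each of these 4 genes the arrays of the 2 ages did not overlap. In contrast, 3 genes of the same cascade gave overlapping arrays and no call: Opn1sw, the short-wavelength opsin (-0.06 ± 0.05, adjusted p = 0.381), Gnat2, the alpha subunit of cone transducin (-0.01 ± 0.05, adjusted p = 0.90), and Pde6c, the cone phosphodiesterase (0.01 ± 0.06, adjusted p = 0.931). Opn1sw, at 13.49 to 13.70, lay near the highest probe set level of the series, 14.32. RMA gives arrays a common distribution, which leaves the brightest genes little room to differ. The missing call of Opn1sw therefore does not show an unchanged level. Of the 9 falls, 8 passed without the arrays low in Y-linked genes (9.51% of all genes were called lower there), 4 with the pigment covariate and 3 on replicate 2 alone. Opn1mw lost its call on replicate 2 alone, Arr3 (-0.24 and -0.26) and Gngt2 (-0.32 and -0.39) in both pigment alternatives with changes close to those above, and Cnga3, Kcnv2 and Rxrg in neither.

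Genes that rods and cones share moved in the same direction. Of 27 tested, 14 fell and 0 rose, with a median change of -0.27, and 26 of the 27 had a negative sign, where 54.4% of all tested genes had a positive one. Nxnl2, a thioredoxin-like gene of photoreceptors, stood at 9.09, 9.04, 9.03 and 9.05 at 4 months and at 8.23, 8.28, 8.40 and 8.18 at 10 months (-0.78 ± 0.07, adjusted p = 4.25e-07). The groups were far apart, and unlike Cnga3 it had been falling throughout, with means of 9.74, 9.35, 9.05, 8.90 and 8.27 at the 5 ages. Its relative Nxnl1, which encodes the rod-derived cone viability factor, was level at 8.98, 8.98, 8.95 and 8.99 up to 6 months and stood at 8.36 at 10 months (-0.59 ± 0.07, adjusted p = 1.11e-05). Rdh12, the retinol dehydrogenase that clears retinal from photoreceptors, fell by 0.71 (± 0.08, adjusted p = 4.24e-06), and Rp1l1, a protein of the outer segment axoneme, by 0.56 (± 0.08, adjusted p = 0.000129). In each pigment alternative 6 members fell, the 4 named genes among them.

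**Figure D3:**
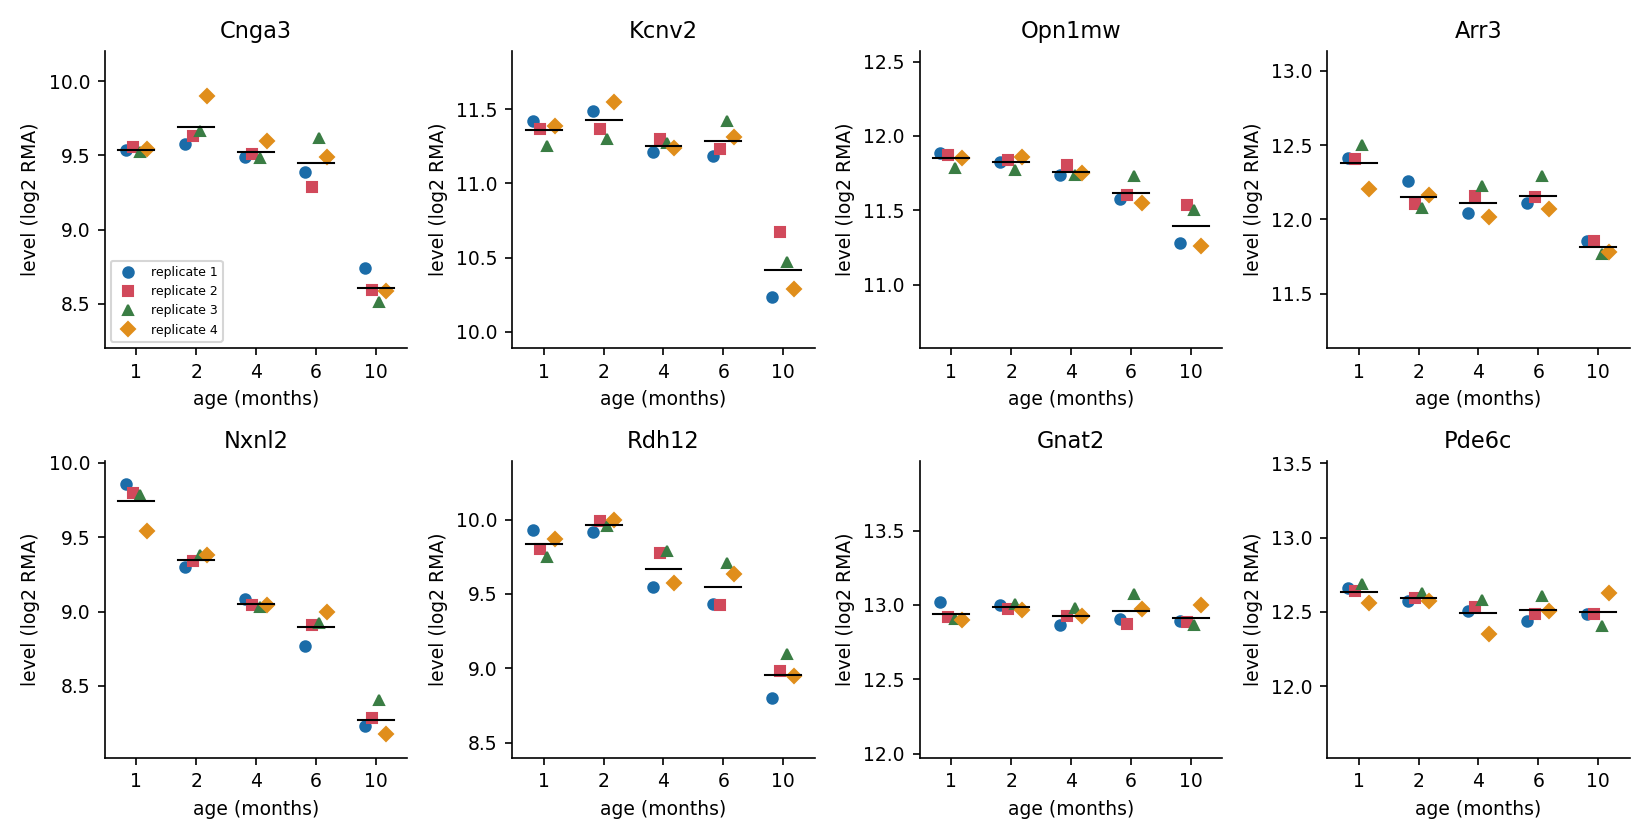
Log2 level of 8 photoreceptor genes in each array (points, 1 symbol per replicate) by age in months, with group means as lines and axes of at least 2 log2 units. Cnga3 and Kcnv2 are level to 6 months and lower in all 4 arrays at 10 months, Nxnl2 declines at each age, and Gnat2 and Pde6c overlap between 4 and 10 months.

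Among 15 tested photoreceptor transcription factors 4 fell and 1 rose. Prdm1, which holds precursors to the photoreceptor fate, stood at 8.97 to 9.28 at 4 months and at 8.07, 8.60, 8.46 and 8.75 at 10 months (-0.64 ± 0.11, adjusted p = 0.000387). Meis1, a homeobox factor, fell by 0.42 (± 0.06, adjusted p = 0.000111), and Neurod1, a factor that keeps photoreceptors alive, by 0.32 (± 0.07, adjusted p = 0.00515). The exception was Esrrb, a nuclear receptor known from rods (0.25 ± 0.08, adjusted p = 0.0337), whose 8 arrays overlapped. Esrrb lost its call with the pigment covariate (0.30, adjusted p = 0.0792) and by its brightest probe set (0.04, adjusted p = 0.887), and Neurod1 lost it in both pigment alternatives (adjusted p = 0.104 and 0.127).

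Of 22 tested ribbon synapse genes 4 fell and 0 rose. They were Egflam, which encodes pikachurin of the synaptic cleft (-0.40 ± 0.05, adjusted p = 1.03e-05), Elfn1, an adhesion protein of the photoreceptor terminal (-0.40 ± 0.09, adjusted p = 0.00397), Lrit1, a leucine-rich repeat protein of the same synapse (-0.26 ± 0.05, adjusted p = 0.00249), and Cplx4, a complexin of ribbon terminals (-0.36 ± 0.09, adjusted p = 0.00846). Egflam alone of the 4 kept its call with the pigment covariate. The rod list, measured in a retina without rods, went both ways, with 4 of 11 higher and 3 lower and a median of 0.02. Pde6b, a rod phosphodiesterase subunit, was lower (-0.40 ± 0.11, adjusted p = 0.0159), while its partner Pde6a (0.29 ± 0.08, adjusted p = 0.0126) and the exchanger Slc24a1 (0.32 ± 0.10, adjusted p = 0.0226) were higher. Pde6b and Slc24a1 lost their calls in both pigment alternatives and Pde6a on replicate 2 alone, and in the fit on the 8 arrays 0 of the rod genes were called.

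Chaperones of the endoplasmic reticulum, which fold secreted and membrane proteins such as opsins, were lower in many members. Of 24 tested, 11 fell and 0 rose, with a median change of -0.12. Creld2, a secreted protein induced when folding in that compartment is disturbed, had the smallest adjusted p of all named genes. It stood at 8.59, 8.57, 8.57 and 8.64 at 4 months and at 7.56, 7.73, 7.57 and 7.60 at 10 months (-0.98 ± 0.05, adjusted p = 4.23e-09, limma), a 1.97-fold lower level with a gap between the groups wider than the range of either. At 1, 2 and 6 months its mean was 8.46, 8.60 and 8.60. Hspa5, which encodes BiP, the main Hsp70-type chaperone of the compartment, went from 11.52, 11.56, 11.62 and 11.47 to 11.13, 10.64, 10.73 and 10.89 (-0.70 ± 0.09, adjusted p = 3.55e-05). The 2 groups did not overlap, and the mean at 10 months, 10.85, was also under the 1-month mean of 11.10. Pdia4, a disulfide isomerase, fell by 0.74 (± 0.07, adjusted p = 6.21e-07), and Manf, a secreted neurotrophic factor of the same response, by 0.63 (± 0.10, adjusted p = 0.00029). Manf was not lower by its brightest probe set (0.05, adjusted p = 0.855). Of the 11 falls, 7 passed with the pigment covariate and 6 in the fit on the 8 arrays, where 675 of all 11852 tested genes were called lower. Creld2, Hspa5 and Pdia4 passed in both.

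Many promoters of these genes carry a shared element. The endoplasmic reticulum stress element, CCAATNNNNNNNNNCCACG, was searched on both strands of the 250 bases before each gene's start in RefSeq's GRCm38.p6 promoter table. It was found in 37 of 32851 windows (0.113%). Of the 11 called chaperone genes 9 had a promoter in the table and 6 of these held the element (Hspa5, Creld2, Pdia6, Dnajc3, Calr and Syvn1), and of the 13 genes not called 12 had one and 3 held it (Hsp90b1, Canx and Derl3). The element is a known feature of this gene family, and its presence is a description of these windows. The sequences of 4 genes are shown because they place the element beside genes that fell strongly, moderately and not at all. Each is written 5′ to 3′ on the gene's strand, upstream of the transcript and outside any exon of the gene, with the element or its reverse complement in capitals.
Creld2, chr15:88819510-88819629, plus strand, reverse complement of the element 126 to 108 bases before the start: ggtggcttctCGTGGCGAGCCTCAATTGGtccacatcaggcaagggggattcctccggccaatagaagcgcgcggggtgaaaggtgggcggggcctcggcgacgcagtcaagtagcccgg
Hspa5, chr2:34771970-34772089, plus strand, element 65 to 47 bases before the start: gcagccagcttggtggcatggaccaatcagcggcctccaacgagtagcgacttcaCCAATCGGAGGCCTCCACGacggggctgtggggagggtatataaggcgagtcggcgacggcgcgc
Pdia6, chr12:17266469-17266588, plus strand, element 98 to 80 bases before the start: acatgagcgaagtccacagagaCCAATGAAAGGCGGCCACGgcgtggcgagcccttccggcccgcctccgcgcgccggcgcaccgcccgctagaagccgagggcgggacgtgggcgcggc
Canx, chr11:50325709-50325828, minus strand, element 145 to 127 bases before the start: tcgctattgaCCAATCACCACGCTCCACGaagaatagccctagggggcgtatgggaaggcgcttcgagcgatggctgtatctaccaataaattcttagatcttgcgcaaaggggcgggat

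Pdia6, a disulfide isomerase, changed by -0.53 ± 0.07 (adjusted p = 3.10e-05). Canx, the membrane chaperone calnexin, changed by -0.03 ± 0.15 (adjusted p = 0.906) with overlapping arrays, although its promoter holds the same letters. Hsp90b1, with 2 copies, did not pass either (-0.07 ± 0.08, adjusted p = 0.582). These genes were chosen for their promoters after their values were seen. Xbp1, the transcription factor of the response, fell by 0.46 (± 0.11, adjusted p = 0.0052), with overlapping arrays. For Pdia6 and Xbp1 the single-gene results of the alternatives are not given. Targets of ATF4, the factor of a parallel stress branch, gave calls in both directions: 4 of 24 rose and 3 fell. Most of the list had a negative sign, 18 of 24 against 6 positive, with a median of -0.10, and under both Y-linked alternatives 2 rose and 6 fell. Of all 11852 tested genes 1106 rose and 1160 fell with the Y-linked covariate, and 1050 and 1127 without the arrays low in Y-linked genes. Slc7a11, the cystine carrier (0.67 ± 0.21, adjusted p = 0.0265), Slc7a5, a carrier of large amino acids (0.31 ± 0.07, adjusted p = 0.00425), and Cebpb, a transcription factor (0.36 ± 0.11, adjusted p = 0.0265), rose, and Mthfd2, a mitochondrial folate enzyme, fell (-0.49 ± 0.10, adjusted p = 0.00241). Slc7a5 kept its call in both pigment alternatives and the other 3 lost it in both. Slc7a11 was then at 0.34 and 0.11, while Cebpb (0.41 and 0.54) and Mthfd2 (-0.40 and -0.51) kept changes near those above. By its brightest probe set Mthfd2 was at -0.12 (adjusted p = 0.751).

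Cytosolic chaperones fell more often than they rose, with 7 of 19 lower and 3 higher. Chordc1, a partner of the chaperone Hsp90, stood at 7.01, 6.95, 6.93 and 6.14 at 4 months and at 6.14, 5.82, 5.79 and 5.93 at 10 months (-0.84 ± 0.17, adjusted p = 0.00154). Its replicate 4 at 4 months lay close to the 10-month arrays. Chordc1 was not called on replicate 2 alone (-0.93, adjusted p = 0.0712) or by its brightest probe set (-0.21, adjusted p = 0.472). Hsph1, a large Hsp70-type protein, fell by 0.53 (± 0.06, adjusted p = 7.92e-06) and Ahsa2, a homologue of an Hsp90 activator, by 0.48 (± 0.08, adjusted p = 0.000317), both without overlap. Bag3, a co-chaperone induced by stress, rose to 9.04, 8.66, 7.95 and 8.13 from 7.59 to 7.94 (0.65 ± 0.16, adjusted p = 0.00667), with replicates 1 and 2 highest.

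RNA-binding genes gave 1 of the clearest single rises. Cirbp, the cold-inducible RNA-binding protein, stood at 10.15, 10.25, 10.24 and 10.17 at 4 months and at 11.23, 11.07, 11.20 and 11.12 at 10 months (0.95 ± 0.06, adjusted p = 3.10e-08), a 1.94-fold higher level. The 4 arrays at 10 months lay close together and well above the 4-month arrays, and the means at 1, 2 and 6 months were 10.40, 10.15 and 10.35. Of the 8 tested genes of the cold-inducible list, 2 rose and 2 fell. Srsf5 (-0.61 ± 0.13, adjusted p = 0.00228) and Clk1 (-0.37 ± 0.09, adjusted p = 0.00421) fell and Clk4 rose (0.36 ± 0.10, adjusted p = 0.019), the first a splicing factor and the others kinases of such factors. Among 39 tested splicing factors and kinases 6 rose and 9 fell. Tra2a fell by 0.78 (± 0.07, adjusted p = 9.63e-07), Srsf10 by 0.71 (± 0.13, adjusted p = 0.000633) and Rbm5 by 0.63 (± 0.05, adjusted p = 4.65e-07), while Hnrnpc rose by 0.76 (± 0.17, adjusted p = 0.00343). Hnrnpc was read on 1 probe set, and Tra2a was not lower by its brightest probe set (0.10, adjusted p = 0.853).

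Some immune genes fell. Of 26 tested genes of microglia and macrophages 11 fell and 0 rose, with a median change of -0.21, and of 13 complement genes 6 fell and 0 rose, with a median of -0.20. Ctss, the microglial protease cathepsin S, stood at 9.45, 9.44, 9.41 and 9.21 at 4 months and at 9.06, 8.47, 8.73 and 8.93 at 10 months (-0.58 ± 0.11, adjusted p = 0.00102). The ages did not overlap. Over all 5 ages its mean went from 8.83 at 1 month up to 9.57 at 2 months and then to 9.38, 9.20 and 8.80, so that the level at 10 months was close to that at 1 month. Itgam, an integrin of macrophages, fell by 0.53 (± 0.08, adjusted p = 0.000234), Ly86, which pairs with a Toll-like receptor relative, by 0.57 (± 0.12, adjusted p = 0.00205), and Tyrobp, an adaptor of microglial receptors, by 0.54 (± 0.12, adjusted p = 0.00351). Tyrobp was dim, at 5.75, 5.37, 5.44 and 5.51 at 10 months, around the limit for testing of 5.61. The microglia count was 5 without the arrays low in Y-linked genes, 9 with the pigment covariate and 8 on replicate 2 alone.

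In the complement list, C4b stood at 10.17, 9.90, 9.83 and 9.71 at 4 months and at 9.34, 9.39, 9.37 and 9.36 at 10 months (-0.53 ± 0.12, adjusted p = 0.00295). Its 1-month mean of 8.56 was still lower, so it came down part of the way. Serping1, the inhibitor of the first complement proteases, fell by 0.61 (± 0.12, adjusted p = 0.00158), C1qa, a chain of the recognition molecule, by 0.45 (± 0.14, adjusted p = 0.0251), and Cr1l, a membrane regulator, by 0.37 (± 0.11, adjusted p = 0.0228). Of the 6 falls, 2 passed with the pigment covariate, 2 without the arrays low in Y-linked genes and 3 on replicate 2 alone. Serping1 alone of the 4 named genes passed in all of these.

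Genes induced by interferon also fell, 6 of 20 with 0 higher and a median of -0.27. Stat2, a transcription factor of the interferon signal, stood at 8.61, 8.65, 8.58 and 8.73 at 4 months and at 8.02, 8.07, 8.06 and 7.91 at 10 months (-0.63 ± 0.06, adjusted p = 6.41e-07). Its earlier means, 8.71, 8.70 and 8.61 at 1, 2 and 6 months, were level, whereas Oasl2, an antiviral gene, had risen from 7.73 at 1 month to 8.48 at 4 months before it fell to 7.85 (-0.63 ± 0.11, adjusted p = 0.000335). Parp14 (-0.67 ± 0.15, adjusted p = 0.00286) and the guanylate-binding protein Gbp3 (-0.59 ± 0.14, adjusted p = 0.00582) fell as well. The antigen presentation list did not follow: 1 of 16 rose, the peptide transporter subunit Tap2 (0.19 ± 0.06, adjusted p = 0.0253), and 1 fell, the class I gene H2-K1 (-0.36 ± 0.11, adjusted p = 0.0217). Both lost their calls in each pigment alternative, where Tap2 was at 0.23 and 0.29 and H2-K1 at -0.43 and -0.50.

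**Figure D4:**
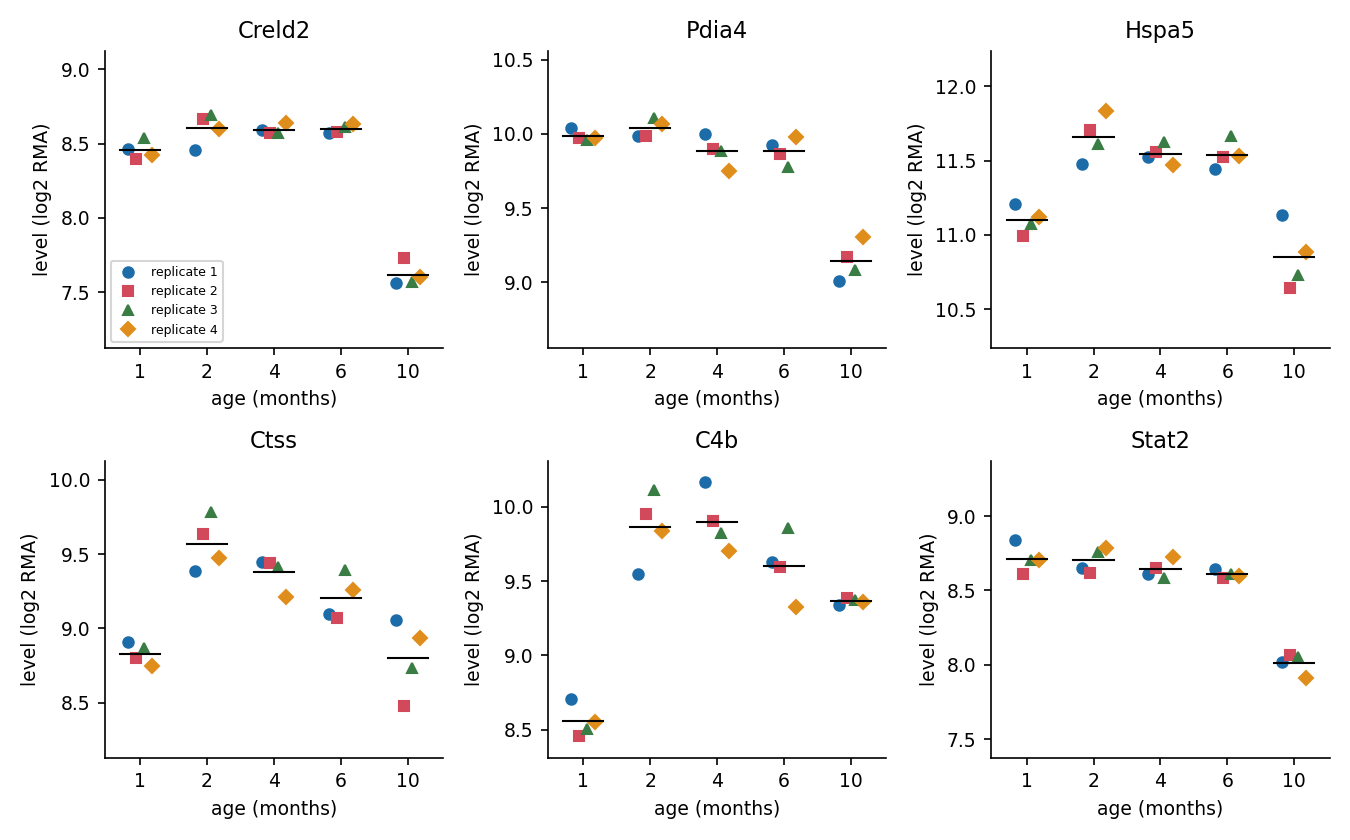
Log2 level of 3 endoplasmic reticulum genes (Creld2, Pdia4, Hspa5) and 3 immune genes (Ctss, C4b, Stat2) in each array (points, 1 symbol per replicate) by age in months, with group means as lines. Creld2, Pdia4 and Stat2 are level to 6 months and lower at 10 months, while Ctss and C4b rise from 1 to 2 months and come down by 10 months.

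Some immediate early genes, which neurons and glia switch on within minutes of a stimulus, rose. Of 25 tested, 11 rose, 0 fell and 14 were not called, with a median of 0.26 and 4 negative signs. Nr4a1, an orphan nuclear receptor, stood at 10.19, 10.02, 10.15 and 10.00 at 4 months and at 11.52, 11.12, 10.58 and 11.02 at 10 months (0.97 ± 0.14, adjusted p = 9.82e-05). Fos, a subunit of the factor AP-1, went from 8.51, 8.33, 8.27 and 8.52 to 9.61, 9.75, 9.009 and 8.999 (0.93 ± 0.14, adjusted p = 0.000162), and Egr1, a zinc finger factor, from 8.08 to 8.47 to 8.96 to 9.54 (0.94 ± 0.13, adjusted p = 5.06e-05). No array overlapped between the ages in these 3 genes, and all 3 kept their calls in both pigment alternatives. Their means at 1 month, 10.55, 8.75 and 8.85, lay between those at 4 and 10 months. Nr4a3, a relative of Nr4a1, stood at 8.19 and 7.40 in replicates 1 and 2 and at 6.55 and 6.48 in the other two, near the 4-month range of 6.29 to 6.54 (0.75 ± 0.24, adjusted p = 0.0314). By its brightest probe set Nr4a3 was at 0.19 (adjusted p = 0.727). The list count was 4 with the pigment covariate, 5 on replicate 2 alone and 4 in the fit on the 8 arrays.

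Clock genes also moved, mostly upward. Of 20 tested, 9 rose and 2 fell, with a median of 0.17. Per1, a repressor of the clock loop, stood at 9.52, 9.43, 9.57 and 9.53 at 4 months and at 10.72, 10.24, 10.07 and 10.15 at 10 months (0.78 ± 0.11, adjusted p = 4.68e-05). Per2 rose by 0.44 (± 0.08, adjusted p = 0.000899), Cry1, another repressor of the loop, by 0.38 (± 0.06, adjusted p = 0.00014) and Nfil3, a clock output factor, by 0.39 (± 0.09, adjusted p = 0.00444). In all 4 the ages did not overlap. Per1 and Cry1 kept their calls in both pigment alternatives and Per2 and Nfil3 in neither. Clock genes vary with the hour, and the hour of dissection is not given in the sources used here, so age and time of day cannot be told apart.

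Glucocorticoid-responsive genes, those that stress hormones induce, included 8 rises among 19 tested and 0 falls, with a median of 0.26. The list shares Per1 and the metallothioneins with others. Cdkn1a, a cell cycle inhibitor, stood at 6.11, 6.08, 6.09 and 6.10 at 4 months and at 7.97, 7.32, 7.44 and 6.91 at 10 months (1.32 ± 0.17, adjusted p = 3.57e-05), a 2.49-fold higher level. Its means at 1, 2 and 6 months, 5.65, 6.09 and 5.84, were all far under the 10-month mean of 7.41. Mt2, a metallothionein that binds zinc and copper, stood at 10.03, 9.10, 9.58 and 8.75 at 4 months and at 11.02, 10.70, 10.36 and 10.75 at 10 months (1.34 ± 0.22, adjusted p = 0.00028). Mt1 rose by 0.71 (± 0.10, adjusted p = 7.34e-05) and Mt3, the form of nervous tissue, by 0.31 (± 0.09, adjusted p = 0.0227). With the zinc exporter Slc30a1 (0.22 ± 0.06, adjusted p = 0.0107), 4 of the 7 tested genes of the metallothionein and zinc list rose. Cdkn1a, Mt2 and Mt1 kept their calls in both pigment alternatives and Mt3 in neither.

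**Figure D5:**
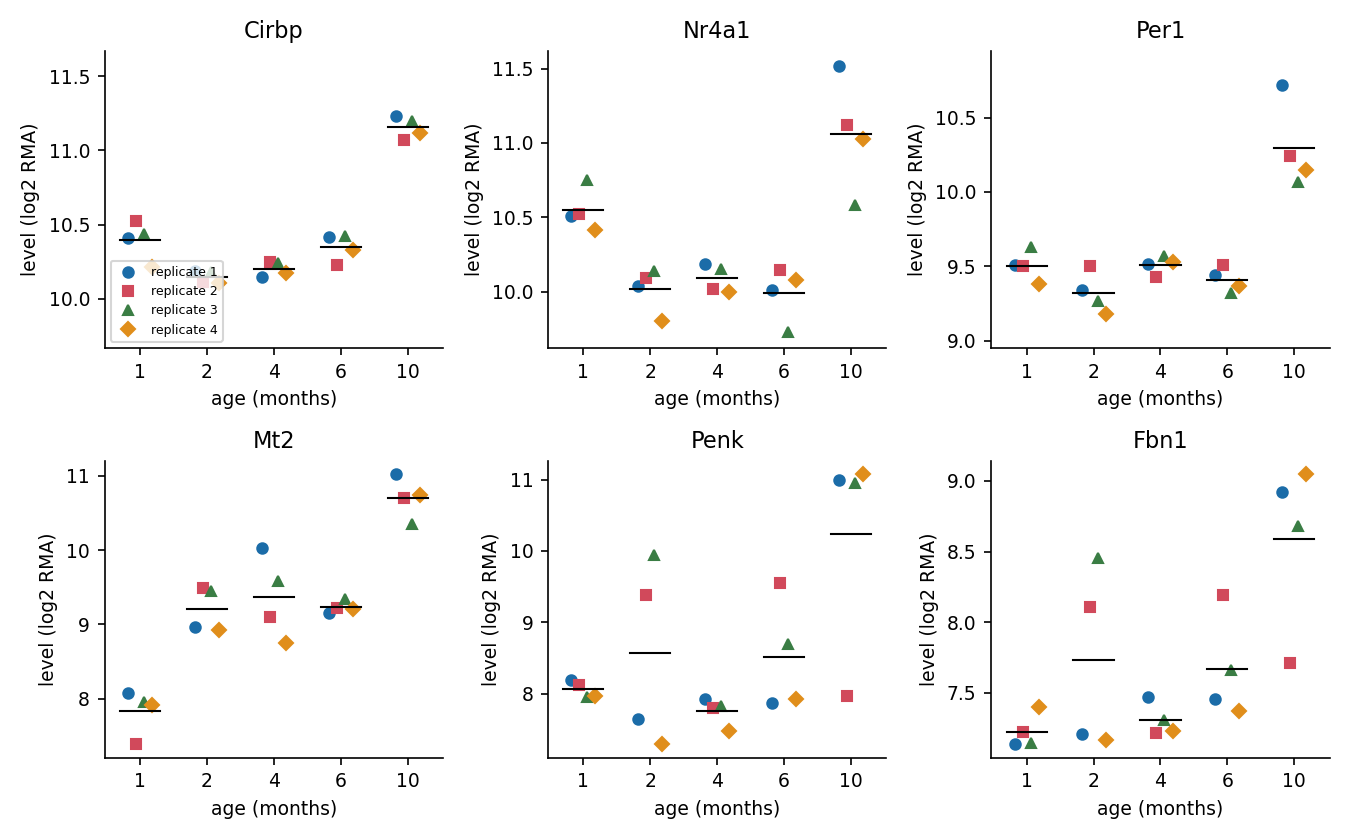
Log2 level of 6 genes that were higher at 10 months in each array (points, 1 symbol per replicate) by age in months, with group means as lines. Cirbp, Nr4a1, Per1 and Mt2 are higher than at 4 months in all 4 arrays at 10 months, while Penk and Fbn1 are high in replicates 1, 3 and 4 and replicate 2 lies at or near the 4-month range.

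Of 29 tested Müller glia genes 7 rose and 0 fell, with a median of 0.14. Dkk3, a secreted protein, stood at 11.73, 11.64, 11.60 and 11.43 at 4 months and at 11.93, 11.87, 11.93 and 12.001 at 10 months (0.33 ± 0.07, adjusted p = 0.00152). Car14, a carbonic anhydrase of the glial membrane, rose by 0.31 (± 0.07, adjusted p = 0.00484), the transcription factor Hes1 by 0.31 (± 0.07, adjusted p = 0.0026) and Rlbp1, the retinal-binding protein of the visual cycle, by 0.27 (± 0.06, adjusted p = 0.00406). The pigment epithelium also expresses Rlbp1, and 1 of the 7 calls remained with the pigment covariate and 0 on replicate 2 alone. Dkk3, Car14 and Rlbp1 had been climbing since 1 month, when their means were 11.31, 9.63 and 10.89.

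Reactive gliosis, the response of glia to injury, did not move one way, with 2 of 23 genes higher, 3 lower and a median of 0.0005. These counts were near the shares of all tested genes, 10.3% higher and 11.7% lower. Serpina3n, a protease inhibitor of reactive glia, stood at 10.75, 10.25, 10.42 and 10.49 at 4 months and at 10.25, 9.39, 9.23 and 9.69 at 10 months (-0.84 ± 0.17, adjusted p = 0.00155). The receptor S1pr3 fell (-0.50 ± 0.12, adjusted p = 0.00435) and Lcn2, an iron-carrier protein of injured tissue, rose with overlapping arrays (0.53 ± 0.16, adjusted p = 0.0215). Gfap, the filament most used to mark gliosis, stood at 8.28 to 8.66 at 4 months and at 7.92 to 8.30 at 10 months and was not called (-0.34 ± 0.13, adjusted p = 0.0687).

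Genes of inner retinal neurons were called higher more often than lower, with 7 of 22 bipolar genes higher and 2 lower, 3 of 11 horizontal, 6 of 22 amacrine and 5 of 19 ganglion cell genes higher and 0 of these 3 lists lower. Their medians were 0.11, 0.12, 0.12 and 0.17. Ndrg1, used here as a horizontal cell gene, went from 9.65 to 9.72 at 4 months to 10.01 to 10.13 at 10 months (0.37 ± 0.05, adjusted p = 0.000129), and Lhx1, a homeobox factor of those cells, rose by 0.34 (± 0.07, adjusted p = 0.00156), as did Mgarp, a mitochondrial protein, by 0.25 (± 0.08, adjusted p = 0.0352). Tac1, a neuropeptide precursor of amacrine cells (0.36 ± 0.09, adjusted p = 0.00977), Ebf3, a transcription factor of such cells (0.28 ± 0.07, adjusted p = 0.00506), and Gad1 (0.22 ± 0.07, adjusted p = 0.0207) and Gad2 (0.23 ± 0.07, adjusted p = 0.0324), which make the transmitter GABA, rose. The ganglion cell calls included the transcription factor Ebf1 (0.37 ± 0.07, adjusted p = 0.00139), Stmn2, an axonal protein (0.32 ± 0.11, adjusted p = 0.0387), Rbpms, an RNA-binding protein (0.25 ± 0.06, adjusted p = 0.00632), and Jam2, an adhesion protein (0.23 ± 0.05, adjusted p = 0.00374).

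In the bipolar list Scgn, a calcium-binding protein (0.29 ± 0.09, adjusted p = 0.0324), Vsx1, a homeobox factor (0.28 ± 0.08, adjusted p = 0.0203), and Rgs7, a regulator of the ON bipolar signal (0.27 ± 0.09, adjusted p = 0.0309), rose, and Trpm1, the ON bipolar channel, fell (-0.28 ± 0.09, adjusted p = 0.0265). Trpm1 is also a melanocyte gene, and its highest 10-month array was replicate 1. With the pigment level as a covariate the counts of rises were 1, 1, 0 and 4 in the bipolar, horizontal, amacrine and ganglion lists, and on replicate 2 alone 1, 1, 0 and 1. In the fit on the 8 arrays alone, where 3.59% of all genes were called higher, they were 1, 2, 0 and 2.

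At 10 months, several of the genes with large rises were high in the arrays that were high in pigment genes. Penk, the enkephalin precursor, stood at 7.92, 7.80, 7.83 and 7.48 at 4 months and at 10.99, 7.96, 10.95 and 11.08 at 10 months (2.48 ± 0.61, adjusted p = 0.00709). Replicate 2, the array low in pigment genes, lay just above the highest 4-month array. Crhbp, which binds the stress peptide CRH, stood at 8.93, 7.08, 8.40 and 8.58 at 10 months against 6.56 to 7.03 (1.38 ± 0.35, adjusted p = 0.00799). Gpx3, a secreted glutathione peroxidase, stood at 10.64, 7.36, 9.90 and 10.33 against 7.03 to 7.44 (2.39 ± 0.75, adjusted p = 0.0274). Slc6a13, a GABA carrier known from the meninges, stood at 7.73, 6.64, 7.74 and 7.84 against 6.23 to 6.59 (1.07 ± 0.25, adjusted p = 0.00542). All 4 lost their calls with the pigment covariate and on replicate 2 alone. In some arrays of other ages Penk, Gpx3, Crhbp and Slc6a13 were also high where the pigment level was not. At 2 months, replicates 2 and 3 had a pigment level of 6.91 and 6.85. Penk stood there at 9.38 and 9.95 and Gpx3 at 9.26 and 10.32. Crhbp stood at 7.84 and 8.03 and Slc6a13 at 7.15 and 7.63, against 6.65 and 6.78, and 6.48 and 6.44, in replicates 1 and 4. In replicate 3 at 6 months, Penk stood at 8.69 and Gpx3 at 8.62, with a pigment level of 6.67. Replicate 2 at 6 months had Penk at 9.55 and Gpx3 at 9.67. Its pigment level, 7.20, was the highest outside 10 months, and its Dct, 9.01, lay above the 6.50 to 6.83 of the other 6-month arrays.

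The matrix genes Fbn1 and Col18a1 were high in the same 10-month arrays. Fbn1, the microfibril protein fibrillin, stood at 8.92, 7.71, 8.68 and 9.05 at 10 months against 7.22 to 7.47 (1.28 ± 0.28, adjusted p = 0.00281), with 75 of its 77 probe sets higher. Its brightest probe set was not among them (-0.14, adjusted p = 0.362). Col18a1, a basement membrane collagen, stood at 8.94, 8.01, 8.85 and 8.95 against 7.77 to 7.95 (0.81 ± 0.21, adjusted p = 0.00904). At 2 months Fbn1 stood at 8.11 and 8.45 and Col18a1 at 8.32 and 8.56 in replicates 2 and 3, whose pigment level was not high. Replicates 1 and 4 at 2 months stood at 7.21 and 7.17 for Fbn1 and at 7.61 and 7.69 for Col18a1. Of 27 tested collagen and laminin genes 5 rose and 1 fell, among the rises Nid2 (0.55 ± 0.14, adjusted p = 0.00789) and Col4a2 (0.26 ± 0.07, adjusted p = 0.0144), and 0 passed in either pigment alternative. Col4a2 stood at 8.12, 8.07, 8.22 and 8.05 at 10 months, where replicate 2 did not stand apart. Of 11 melanocyte and choroid genes 2 rose, the melanosome carriers Oca2 (0.50 ± 0.17, adjusted p = 0.0356) and Slc24a5 (0.40 ± 0.11, adjusted p = 0.015), both with overlapping arrays and both lost in each pigment alternative. Whether the rises of these genes come from attached pigment epithelium or neighbouring tissue was not tested. Blood vessel genes gave no common direction, with 2 of 27 higher and 3 lower, near the shares of all tested genes (10.3% and 11.7%). Mcam, an adhesion protein of vessel walls, rose by 0.56 (± 0.09, adjusted p = 0.000302) and Plvap, of fenestrated endothelium, by 0.33 (± 0.09, adjusted p = 0.0143), and the pericyte genes Pdgfrb (-0.34 ± 0.08, adjusted p = 0.00476) and Rgs5 (-0.32 ± 0.10, adjusted p = 0.0239) fell. Plvap and Rgs5 lost their calls in both pigment alternatives, and by the brightest probe set Pdgfrb was at -0.02 (adjusted p = 0.958) and Mcam at 0.24 (adjusted p = 0.565).

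Several of the largest single falls belonged to no list. Senp8, a protease that removes NEDD8, stood at 8.65, 9.09, 8.96 and 8.82 at 4 months and at 7.56, 8.08, 7.90 and 7.995 at 10 months (-0.996 ± 0.12, adjusted p = 1.21e-05). Ciao1, of the cytosolic iron-sulfur assembly machinery, stood at 9.26, 9.33, 9.30 and 9.34 and then at 8.37, 8.50, 8.40 and 8.26 (-0.92 ± 0.06, adjusted p = 4.55e-08). Both had been level since 1 month, when their means were 8.81 and 9.23. Bcs1l, an assembly factor of respiratory complex III, fell by 0.81 (± 0.08, adjusted p = 2.65e-06), and Cep97, a centriolar protein, by 0.95 (± 0.09, adjusted p = 1.23e-06) but not by its brightest probe set (0.13, adjusted p = 0.576). Chrnb4, a nicotinic receptor subunit, fell from 9.85 to 10.30 to 8.98 to 9.49 (-0.90 ± 0.13, adjusted p = 0.000118), continuing a decline from 10.47 at 2 months. Crp, the C-reactive protein gene, declined at each age, from a mean of 6.995 at 1 month to 6.38 at 4 and 5.53 at 10 months (-0.85 ± 0.14, adjusted p = 0.000269). Its 10-month mean lay under the limit for testing, 5.61, which is applied to the mean of all arrays. Rpp38, named below, was also dim, at 5.14, 5.80, 5.70 and 5.28 at 10 months. Bmp15 (-0.82 ± 0.10), a growth factor known from oocytes, the histone gene H3c15 (-0.83 ± 0.14, 1 probe set), Klhl38 (-0.82 ± 0.16) and Rpp38 (-0.81 ± 0.16), a subunit of RNase P, fell too. Klhl38 stood at 7.10 to 7.36 at 4 months and at 6.30, 7.03, 6.13 and 6.14 at 10 months, so replicate 2 lay just under the 4-month range. It was at -0.52 (adjusted p = 0.069) with the pigment covariate and at -0.19 (adjusted p = 0.679) on replicate 2 alone. Rpp38 was at -0.53 (adjusted p = 0.0691) and -0.49 (adjusted p = 0.263) in these fits and at -0.31 (adjusted p = 0.131) by its brightest probe set.

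Among the other large rises, Id2, an inhibitor of helix-loop-helix factors, stood at 7.31, 7.26, 7.13 and 6.62 at 4 months and at 8.38, 7.91, 7.75 and 8.36 at 10 months (1.02 ± 0.16, adjusted p = 0.000232). Coq10b, a mitochondrial coenzyme Q binding protein (0.97 ± 0.17, adjusted p = 0.000593), and Sik1, a kinase induced by cyclic AMP (0.93 ± 0.18, adjusted p = 0.00102), rose without overlap. By their brightest probe sets neither passed, with Coq10b at 0.18 (adjusted p = 0.491) and Sik1 at 0.09 (adjusted p = 0.788). Fam107a, which stress hormones induce in brain, rose by 0.81 (± 0.20, adjusted p = 0.00632), from 6.85 at 1 month to 8.54 at 10 months, with its lowest 10-month value in replicate 1.

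The respiratory chain gave 0 calls among 42 tested genes by limma, 4 at an unadjusted p under 0.05 and up to 3 in the alternatives, with a median of 0.02 and a range from -0.19 to 0.26. Among all 11852 tested genes 3967 passed that unadjusted threshold. Of 18 glycolysis genes 1 rose, the phosphofructokinase Pfkp (0.28 ± 0.04, adjusted p = 1.66e-04), and 3 fell. These were Slc16a3, a lactate carrier (-0.73 ± 0.09, adjusted p = 1.28e-05), Hk2, the hexokinase of photoreceptors (-0.39 ± 0.08, adjusted p = 0.00214), and Slc2a1, the main glucose carrier (-0.23 ± 0.05, adjusted p = 0.00488). Of 18 cholesterol synthesis genes 6 rose and 1 fell, led by Insig1, the sterol sensor partner, which went from 10.21 to 10.52 at 4 months to 10.85 to 11.05 at 10 months (0.56 ± 0.07, adjusted p = 2.82e-05). The enzymes Hsd17b7 (0.47 ± 0.07, adjusted p = 0.000183), Msmo1 (0.39 ± 0.08, adjusted p = 0.00152) and Nsdhl (0.38 ± 0.08, adjusted p = 0.00317) rose beside it. Oxidative stress genes rose in 6 of 28 and fell in 1, including Txnip, a thioredoxin inhibitor (0.53 ± 0.12, adjusted p = 0.0029), and Sod2, the mitochondrial superoxide dismutase (0.29 ± 0.06, adjusted p = 0.00205), and 1 of the 6 passed with the pigment covariate.

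Of 23 cell death genes 2 rose and 3 fell, near the shares of all tested genes (10.3% higher and 11.7% lower). Apaf1, the scaffold of the apoptosome, fell by 0.59 (± 0.06, adjusted p = 3.72e-06), Parp1, a DNA damage sensor, by 0.47 (± 0.07, adjusted p = 9.71e-05) and Aifm1 by 0.29 (± 0.08, adjusted p = 0.0137), while Casp9, which Apaf1 activates, rose by 0.21 (± 0.06, adjusted p = 0.0166). Aifm1 and Casp9 kept their calls in 0 of the 6 alternatives named in the next paragraph, and the list had 0 rises with the brightest probe set, on the 8 arrays and in each Y-linked and pigment alternative. Of 11 proliferation genes 1 rose, the replication helicase subunit Mcm2 (0.51 ± 0.05, adjusted p = 2.96e-06). This share of rises, and that of the ribosomal list, was near the 10.3% of all tested genes. Of 20 cytosolic ribosomal protein genes 2 rose, Rplp0 (0.50 ± 0.17, adjusted p = 0.047) and Rps20 (0.34 ± 0.11, adjusted p = 0.0352), both with overlapping arrays and both without a call in the pigment alternatives.

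Of the 138 genes named by rule that were called, 42 kept their call and direction in all of the following fits. These were every fit that left out 1 of the 8 arrays, and 6 further alternatives. The 6 were the fit on the 8 arrays alone, each covariate by itself, each removal of 10-month arrays and the brightest probe set. Of the 42, 31 were falls and 11 rises. Both covariates together are not among the 6. In that fit 44 of the 147 named genes kept their sign and their status as called or not, 89 lost their call and 14 changed sign. Srsf10, 1 of the 42, was among those that changed sign (0.0414, adjusted p = 0.898 by limma). The 42 include Cnga3, Kcnv2, Rxrg, Nxnl1, Nxnl2, Rdh12 and Rp1l1 among photoreceptor genes, Creld2, Hspa5 and Pdia4 among chaperones, Ctss, Itgam, Serping1, Stat2 and Oasl2 among immune genes, and Cirbp, Cdkn1a, Mt1, Mt2, Nr4a1, Fos, Egr1, Per1, Cry1, Insig1 and Ndrg1, which are all 11 of the rises. Leaving out 1 array at a time removed between 12 and 18 calls among the named genes, and 32 genes lost theirs at least once, with an adjusted p of up to 0.176 by limma. They were Pde6b, Slc24a1, Esrrb, Scgn, Vsx1, Trpm1, Rgs7, Mgarp, Gad1, Gad2, Stmn2, Lcn2, Mt3, C1qa, Cr1l, H2-K1, Tap2, Rgs5, Oca2, Slc24a5, Nr4a3, Slc7a11, Cebpb, Gpx3, Clk4, Rplp0, Rps20, Col4a2, Aifm1, Casp9, Eif2s3y and Kdm5d. Without the arrays low in Y-linked genes 25 calls were lost with the sign unchanged, and that of Eif2s3y was lost with the sign reversed (0.0656).

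Of the 138 calls, 59 were lost with the pigment covariate and 72 on replicate 2 alone, 55 of them in both. For 20 of the 55 the change was also more than 1.5 times smaller in both fits: Penk, Crhbp, Fbn1, Slc6a13, Col18a1, Klhl38, Rpp38, Pde6b, Slc24a1, Cplx4, Car14, Oca2, Slc24a5, Per2, Slc7a11, Gpx3, Clk4, Rplp0, Nid2 and Slc30a1. The other 35 were Fam107a, Gngt2, Arr3, Neurod1, Elfn1, Lrit1, Scgn, Rgs7, Lhx1, Mgarp, Tac1, Ebf3, Gad1, Gad2, Stmn2, Rbpms, Hes1, Rlbp1, Lcn2, Mt3, C4b, Cr1l, H2-K1, Tap2, Plvap, Rgs5, Rrh, Nfil3, Mthfd2, Cebpb, Txnip, Col4a2, Aifm1, Casp9 and Rps20. Rrh is itself averaged into the pigment level, so its loss follows in part from how these fits were set up. The pigment covariate alone removed the calls of 4 more, Esrrb, C1qa, Nr4a3 and Bag3. Replicate 2 alone removed 17 more, those of Id2, Chrnb4, Chordc1, Opn1mw, Pde6a, Ebf1, Jam2, Dkk3, S1pr3, Tyrobp, Parp14, Sod2, Srsf5, Clk1, Hnrnpc, Msmo1 and Nsdhl. The brightest probe set removed 63 calls, 32 of them with a change more than 1.5 times smaller or of the other sign. These 32 were Crhbp, Fbn1, Slc6a13, Coq10b, Sik1, Col18a1, Cep97, Chordc1, Rpp38, Esrrb, Rgs7, Mgarp, Jam2, Mcam, Pdgfrb, Plvap, Rrh, Oca2, Slc24a5, Nr4a3, Per2, Manf, Mthfd2, Clk1, Clk4, Tra2a, Hsd17b7, Nid2, Apaf1, Casp9, Mcm2 and Eif2s3y.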

How the data were processed

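The authors deposited log2 RMA values per exon-level probe set, per the submitters' processing notes. Software version, array build and probe-set choice were not stated there. The members and gene lists were chosen with earlier results of these data known. Probe sets with 1 symbol in the platform's gene table (179496 of 194293, while 1328 had several and 13469 none) were combined per gene by median polish, with 2014 symbols updated through RefSeq's GRCm38.p6 table. The dimmest 25% of genes were left out. The model was fitted in limma 3.58.1 (R 4.3.3) by lmFit with a mean for each age over all 20 arrays and plain eBayes, with 15 residual degrees of freedom. Tests were two-sided, and p-values were adjusted by Benjamini-Hochberg over 11852 genes at a threshold of 0.05. The steps were tested on simulated data. Genes were named by rule: the 15 highest rises and the 15 deepest falls of called genes without overlap between arrays, skipping predicted genes and olfactory or vomeronasal receptors, up to 4 members per list with the greatest change (called first), and Nrl, Opn1sw, Opn1mw, Gnat2, Arr3, Pde6c, Gfap, Rpe65, Eif2s3y and Kdm5d in any case. Of the 167 genes so chosen 147 are named, and the others, none of them called, are covered by their list counts. Alternatives changed the probe-set summary, filter, scaling, weights, eBayes options, block, samples and covariates. The removal of the pigment-rich arrays and the joint covariates were added after the data were seen. The number of arrays limits the precision. RMA gives arrays a common distribution, so a shift of all genes would go unseen. Figures were drawn in matplotlib 3.10.9.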

Additional observations from a re-analysis of the deposited data

Results flagged for a closer look

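In a group of 4 mice, a value counted as far from the others when its gap to the nearest, divided by the group's range, passed Dixon's 95% critical value. Of 294 groups examined, 15 met this, and chance flags about 1 in 20 groups. At 10 months replicate 2 was low for Penk (7.9644), Slc6a13 (6.6354) and Col18a1 (8.0091), and replicate 1 was high for Trpm1 (9.6055). At 4 months replicate 4 was low for Coq10b (7.9927), Chordc1 (6.1365), Scgn (9.3659), Ctss (9.2138), Eif2s3y (7.5018) and Kdm5d (7.1546) and high for Nrl (6.5346). Among the 20 arrays, that array had the lowest mean correlation with the others, 0.985. Also at 4 months, replicate 1 was high for Car14 (10.1274), Txnip (7.9647) and Pfkp (10.5381), and replicate 3 was low for Mthfd2 (7.3733).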

How the results depend on the processing

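The count of 2597 called genes stayed within 1.5 times under the other probe-set mean, filters, scalings, weights, eBayes options and the Y-linked alternatives (2177 to 2980), and leaving out 1 array gave 2059 to 2729. It moved to 1075 with the brightest probe set, 1101 on the 8 arrays alone, 184 with a minimum of 1.5-fold, 1018 with the pigment covariate (1001 of them also called without it), 542 without the pigment-rich arrays (504 also called with them) and 849 with both covariates (563 higher, 286 lower, and 445 also called without them). The share of rises among the calls, 46.8% in the reported fit, was 31.4% without the pigment-rich arrays and 66.3% with both covariates. Same-numbered mice of the 2 ages did not deviate together (correlations 0.11, 0.03, -0.46 and -0.57), and the reported fit does not pair them. With so few mice per age these correlations cannot exclude a shared handling of same-numbered mice. A replicate block gave 2279 calls and removed 3 of the named ones.

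The named genes below changed sign or came to 0. With the brightest probe set Fbn1 was at -0.144, Cep97 at 0.1349, Pde6c at -0.0394, Manf at 0.0494 and Tra2a at 0.101. With the mean of the probe sets Trpm1 was at 0.0173 and Gnat2 at 0.0098. Without the pigment-rich arrays Oca2 was at -0.1656, Dct at -0.4892, Tyrp1 at -0.3881, Pmel at -0.1678, Rpe65 at -0.2663 and Pde6c at -0.0045, and with the pigment covariate Dct was at -0.1244, Tyrp1 at -0.0962, Pmel at -0.015 and Gnat2 at 0.005. Eif2s3y was at 0.0508 with the Y-linked covariate and at 0.0656 without the 2 arrays low in Y-linked genes, where Gnat2 was at 0.0212 and 0.0215. With both covariates Pde6b was at 0.2412, Cplx4 at 0.1441, H2-K1 at 0.0048, Oca2 at -0.0822, Srsf10 at 0.0414, Col4a2 at -0.0621, Aifm1 at 0.0866, Kdm5d at 0.0453, Opn1sw at 0.1349, Gnat2 at 0.1661, Gfap at 0.1013, Dct at -0.0728, Tyrp1 at -0.0091 and Pmel at -0.173. Quantile normalization put Opn1sw at 0 and Pde6c at -0.0096, and array weights put Pde6c at -0.0469. Leaving out 1 array gave -0.0411 to 0.0064 for Gnat2, -0.0372 to 0.0422 for Pde6c and -0.122 to 0.0258 for Nrl, none of them called. Dct, Tyrp1, Pmel and Rpe65 are among the genes averaged into the pigment level, and Eif2s3y and Kdm5d make up the Y-linked level. Small or reversed values of these genes under their own covariate or array removal follow from how those fits were set up. The cause of the other differences was not tested.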

Other observations

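Set against 6 months instead of 4, the same 10-month arrays gave the following changes, which are not independent of those above since both comparisons share the 10-month mice. Cnga3 (-0.84 ± 0.07, adjusted p = 6.16e-07, limma), Kcnv2 (-0.87 ± 0.08, adjusted p = 1.11e-06) and Creld2 (-0.98 ± 0.05, adjusted p = 3.82e-09) were lower by about as much as against 4 months. Cirbp (0.80 ± 0.06, adjusted p = 1.90e-07), Nr4a1 (1.07 ± 0.14, adjusted p = 3.28e-05) and Mt2 (1.47 ± 0.22, adjusted p = 1.12e-04) were higher. C4b (-0.24 ± 0.12, adjusted p = 0.166), Serpina3n (-0.34 ± 0.17, adjusted p = 0.165), Tyrobp (-0.19 ± 0.12, adjusted p = 0.272) and Dkk3 (0.17 ± 0.07, adjusted p = 0.0679) were not called against 6 months. Penk, called against 4 months, was not called against 6 months (1.73 ± 0.61, adjusted p = 0.0535). Whether any of these changes differ between the 2 comparisons was not tested.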
